A study of Homo sapiens with 36 samples.

Results

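Intergenic regions more than 100 kb from any protein-coding gene made up 30704 of 204358 open regions (15.0%) in the GATA6 experiment. They made up 26529 of 189959 (14.0%) in the BRM014 experiment and 17536 of 128681 (13.6%) in the experiment with siRNA to both SWI/SNF ATPases. Regions were built in each experiment by merging overlapping ATAC-seq peaks of all its libraries on chromosomes 1 to 22 and X. A region was kept when its centre lay outside every RefSeq protein-coding gene and over 100 kb from both ends of each. These gene-distant regions were chosen by position alone, so their peak values were not used to pick them.

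ATAC-seq maps open chromatin by the insertion of sequencing adapters, and was applied here in 36 libraries to BT549, a mesenchymal line from a triple-negative breast tumour. In the GATA6 experiment (n = 3 per group) cells carried control siRNA (siCtl) or siRNA to the zinc finger transcription factor GATA6 (siGATA6) for 72 h, and received vehicle (siCtl_Veh, siGATA6_Veh) or 500 nM dexamethasone (DEX) for 2 h (siCtl_DEX, siGATA6_DEX). In the BRM014 experiment (n = 4 per group) cells received for 4 h DMSO, 10 µM BRM014, 500 nM DEX with DMSO (DEX_DMSO) or DEX with BRM014 (DEX_BRM014). The last experiment (n = 4 per group) compared control siRNA without further treatment (siCtl_only) with siRNA to BRG1 and BRM together (siBRG1_siBRM), whose duration the labels do not give. The labels number the libraries of a group as biological replicates and say nothing more of their cultures, and peak lists alone cannot show how far GATA6, BRG1 or BRM was depleted.

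Enhancers are DNA elements that raise transcription from a distance and, when bound by transcription factors, are found as open chromatin between nucleosomes. SWI/SNF complexes use the ATPase BRG1 or BRM to slide or evict nucleosomes and keep such elements open, and BRM014 is an allosteric inhibitor of both ATPases. Dexamethasone is a synthetic glucocorticoid that drives the glucocorticoid receptor into the nucleus, where it binds mostly at enhancers rather than promoters and can open chromatin with the help of SWI/SNF.

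Sequences could be shown where a gene-distant region overlapped the start site of a long non-coding RNA (lncRNA) gene. This was so for 294 of the regions in the GATA6 experiment (0.958%), 242 in the BRM014 experiment (0.912%) and 209 in the ATPase siRNA experiment (1.19%). The windows printed here are the 300 bases around the RefSeq start of 4 such genes (build GRCh38.p14, 5′ to 3′ on the gene's strand), a pair that gained a peak in every DEX comparison and a pair whose peak was lost in every SWI/SNF comparison. Capitals mark AGAACA or its reverse complement TGTTCT, the 6-base core of a glucocorticoid receptor element, and TGANTCA, the site of the AP-1 factors (FOS and JUN dimers), both searched on both strands.
LOC105375373 (chr7:80334904-80335203, minus strand, gained with DEX): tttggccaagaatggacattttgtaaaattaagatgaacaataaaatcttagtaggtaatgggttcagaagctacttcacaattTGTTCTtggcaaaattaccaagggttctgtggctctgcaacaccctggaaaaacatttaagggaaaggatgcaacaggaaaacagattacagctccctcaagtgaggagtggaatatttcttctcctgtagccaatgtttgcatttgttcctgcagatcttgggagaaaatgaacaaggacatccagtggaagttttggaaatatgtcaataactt
LOC105373288 (chrX:82757607-82757906, plus strand, gained with DEX): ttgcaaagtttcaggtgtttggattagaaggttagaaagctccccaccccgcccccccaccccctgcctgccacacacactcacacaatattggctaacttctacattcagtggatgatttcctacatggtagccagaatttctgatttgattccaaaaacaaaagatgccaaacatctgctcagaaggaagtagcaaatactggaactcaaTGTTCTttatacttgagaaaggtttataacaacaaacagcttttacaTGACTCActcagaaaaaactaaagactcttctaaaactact
LOC107986617 (chr6:82017354-82017653, plus strand, lost with BRM014 and siBRG1_siBRM): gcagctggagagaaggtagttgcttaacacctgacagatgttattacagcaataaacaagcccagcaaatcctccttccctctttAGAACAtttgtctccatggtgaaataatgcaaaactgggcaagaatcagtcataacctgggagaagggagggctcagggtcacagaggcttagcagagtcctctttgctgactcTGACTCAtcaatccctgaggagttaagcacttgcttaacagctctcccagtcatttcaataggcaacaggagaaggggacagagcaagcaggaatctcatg
LOC105369880 (chr12:87428902-87429201, plus strand, lost with BRM014 and siBRG1_siBRM): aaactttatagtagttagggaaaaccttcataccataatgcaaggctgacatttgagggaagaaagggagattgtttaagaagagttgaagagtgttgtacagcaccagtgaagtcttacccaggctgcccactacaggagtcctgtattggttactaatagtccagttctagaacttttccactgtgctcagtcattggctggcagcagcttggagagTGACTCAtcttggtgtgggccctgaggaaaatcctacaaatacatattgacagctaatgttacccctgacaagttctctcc

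The region over the LOC105375373 start (chr7:80334975-80335278, 109 kb from GNAI1) had no peak in any siCtl_Veh, siGATA6_Veh or DMSO library. Its fold enrichment over background, as the authors' peak caller gave it, was 10.1, 5.51 and 7.23 in siCtl_DEX and 6.17, 4.79, 5.43 and 5.58 in DEX_DMSO. No BRM014, DEX_BRM014 or siBRG1_siBRM library had a peak there. The region over the LOC107986617 start (chr6:82017418-82017651, 152 kb from IBTK) had a fold enrichment of 6.87, 7.54, 5.54 and 5.46 in DMSO and of 5.38, 7.01, 9.14 and 8.42 in siCtl_only. There it was without a peak in all 12 libraries of BRM014, DEX_BRM014 and siBRG1_siBRM. Among all promoters overlapped by a gene-distant region, 20.2% held TGANTCA in the BRM014 experiment and 26.3% held AGAACA, against 7.71% and 14.8% of all RefSeq promoter windows of this length. The TEAD site CATTCC was in 16.4% against 14.0%, the GATA site AGATAA in 16.03% against 10.3%, and the full receptor element (the core and its inverted repeat with 3 bases between) in 0% against 0.00285%. A match describes letters only, and no test was run on these shares. The RefSeq windows were limited neither to those with a peak nor to starts far from protein-coding genes. The part that these differences have in the shares was not tested. Other windows lost in every SWI/SNF comparison were not printed and had no TGANTCA. Of these, LOC107986223 held the receptor core alone, LOC105378521 the TEAD site alone and TRD-AS1 none of these sites. The printed pair thus does not stand for all lost windows.

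The gene-distant regions were close in width to intergenic regions nearer to genes but had weaker peaks. Their median width was 170, 138 and 143 bp in the GATA6, BRM014 and ATPase siRNA experiments. Intergenic regions 1 to 100 kb from a gene, called near intergenic regions here, had 167, 141 and 150 bp. The median distance of gene-distant regions from a protein-coding gene was 269.8, 261 and 262 kb. Between 29.1% and 29.4% lay inside an annotated lncRNA gene, against 22.2% to 22.5% of near intergenic regions. Every library of the experiment held a peak at 27.6%, 7.84% and 10.1% of them, against 34.6%, 13.5% and 19.9% of near intergenic regions. Seen in 1 library only were 26.3%, 38.5% and 37.7%, against 24.5%, 35.9% and 31.3% of near intergenic regions and 27.3%, 39.7% and 33.5% of regions inside genes. The median fold enrichment of their peaks lay below that of near intergenic peaks in 36 of 36 libraries (7.88 to 9.09 against 8.58 to 9.75 in the GATA6 experiment and 6.47 to 8.31 against 7.28 to 8.95 in the BRM014 experiment). Against peaks inside genes their median was lower in 3 of 12, 11 of 16 and 8 of 8 libraries of the GATA6, BRM014 and ATPase siRNA experiments. By −log10 q, their median peak ranked at percentile 42.5 to 46.4 of its library in the GATA6 experiment, where peaks within 1 kb of a gene end ranked at 67.7 to 70.2.

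A constant set stayed open throughout. Of the gene-distant regions of the BRM014 experiment, 1320 (4.98%) had a peak in all 36 libraries, against 10.9% of near intergenic regions, and these were wider (median 331 bp). The best ranked lay at chr13:109424127-109424340, 216 kb from MYO16, an unconventional myosin gene, with a fold enrichment of 81.0, 83.3, 79.98 and 81.7 in DMSO and 81.3, 84.6, 82.9 and 80.9 in BRM014. A second, at chr3:96617565-96618005 and 197 kb from the ephrin receptor gene EPHA6, ranged from 57.6 to 63.0 in BRM014 and from 53.6 to 64.4 in DMSO. Neither separated treated from control libraries.

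Library facts apply to all results. The lists held 114113 to 131423 peaks in the GATA6 experiment, 41026 to 103956 in the BRM014 experiment and 37184 to 87609 in the ATPase siRNA experiment, and read totals were not at hand. The lowest expected read pileup, recovered from the fold enrichment and p-value of weak peaks and moving with read depth, was 0.281 ± 0.0298 (SD, n = 4) in DMSO, 0.275 ± 0.0306 in BRM014, 0.293 ± 0.0463 in siCtl_only and 0.281 ± 0.0208 in siBRG1_siBRM. Peaks at a gene end were present in 36 of 36 libraries for the mesenchymal genes VIM, CD44 and AXL and in 33 for ZEB1, and for the epithelial genes EPCAM, CDH1, ESRP1 and KRT8 in 11, 21, 10 and 22. Markers of other cell types were mixed: the leukocyte genes SPI1, PTPRC and CD3E had one in 36, 30 and 16 libraries, the neural genes SNAP25, SYT1, OLIG2 and NEUROD1 in 36, 36, 1 and 0, and the endothelial gene TEK in 18 with PECAM1, CDH5 and VWF in 0. A peak at a gene end does not show expression, so these lists do not settle the cell type. Replicate 1 of siBRG1_siBRM stood apart with 66607 peaks against 37184 to 51438 in the other 3. Absence of a peak means a signal below the caller's threshold, not closed chromatin, and in bulk cells fewer cells with an open site and less opening per cell cannot be told apart.

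After 4 h with BRM014 most of the gene-distant peaks seen in a DMSO library were below the caller's threshold. The held share, the percentage of them with a peak in a library, was 41.5%, 47.6%, 43.7% and 48.9% in the DMSO libraries. In the BRM014 libraries it was 16.4%, 19.8%, 21.8% and 14.1%. All 4 treated libraries lay far below every control. The means were 45.4% ± 3.41 and 18.03% ± 3.41 (SD, n = 4), a fall of 60.3% (exact permutation p = 0.0286, two-sided, the smallest that 4 against 4 allows; adjusted p = 0.0327 over 8 tests). Near intergenic regions fell by 45.9%, from 46.7% ± 2.68 to 25.3% ± 4.89. Set against them, the held share of gene-distant regions dropped by 0.44 on the log2 scale, from −0.04 ± 0.03 to −0.48 ± 0.07 (exact permutation p = 0.0286, adjusted p = 0.0327). With every list cut to the same number of best peaks the fall was 9.19 percentage points and 0.23 on the log2 scale, and both kept their call.

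The loss was of like size in the presence of DEX. The held share was 48.5%, 43.5%, 44.8% and 43.0% in DEX_DMSO and 21.0%, 16.6%, 15.1% and 15.9% in DEX_BRM014. The fall was 61.8%, and 0.48 on the log2 scale relative to near intergenic regions (both exact permutation p = 0.0286, adjusted p = 0.0327). The effects of BRM014 with and without DEX differed by −0.393 percentage points (permutation p = 0.881, adjusted p = 0.881 over 4 tests), which does not show them to be equal.

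Depletion of both ATPases by siRNA had the same direction with more spread. The held share was 62.7%, 57.8%, 51.4% and 56.9% in siCtl_only and 39.8%, 22.5%, 16.02% and 20.3% in siBRG1_siBRM. No treated library reached a control, and replicate 1 of siBRG1_siBRM was the highest of its group by a wide margin. The mean fell by 56.9%, from 57.2% ± 4.64 to 24.6% ± 10.4 (n = 4), against 43.0% for near intergenic regions, and the relative held share dropped by 0.45 on the log2 scale (both exact permutation p = 0.0286, adjusted p = 0.0327). With the same number of best peaks in every list the held share fell by 15.5 percentage points.

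**Figure D1:**
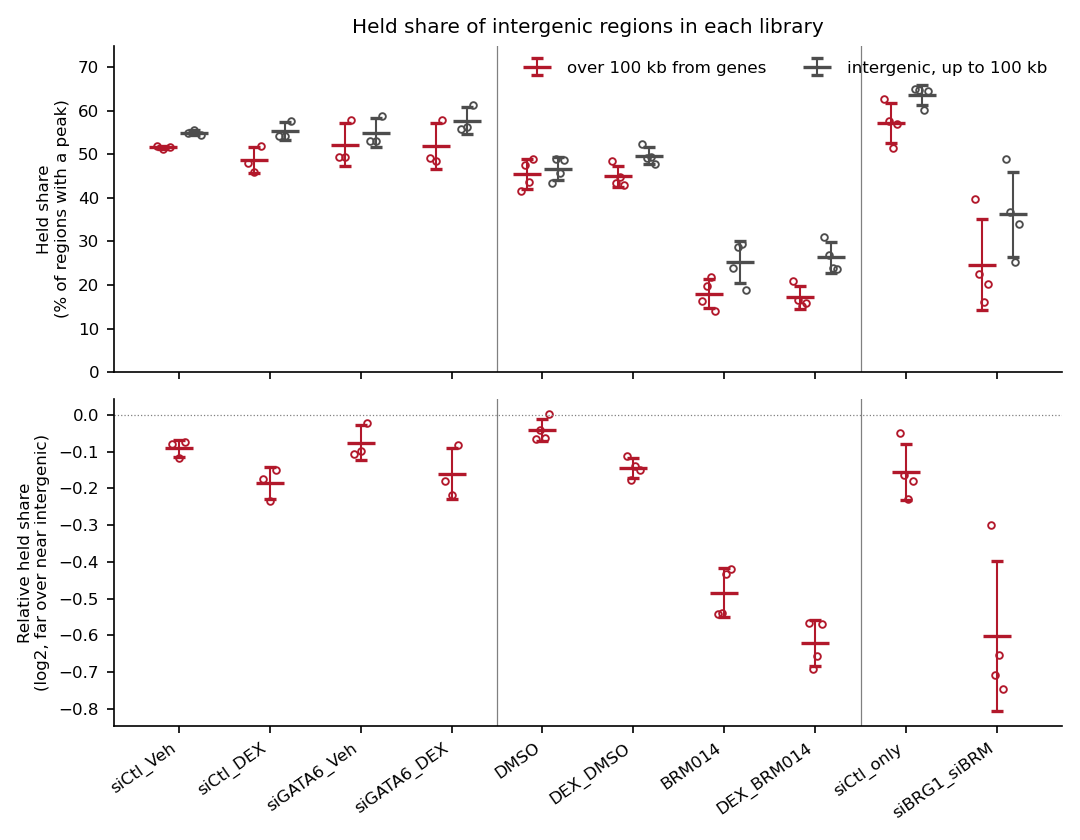
Held share of gene-distant regions (red) and near intergenic regions (grey) in each of 36 libraries (upper panel, percent), and the log2 ratio of the former to the latter (lower panel). Circles are libraries, bars are means ± SD (n = 3 or 4), and vertical lines part the 3 experiments; all libraries of BRM014, DEX_BRM014 and siBRG1_siBRM lie below their controls in both panels.

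The size of the loss rose with distance and then levelled off. With BRM014 the held share fell by 36.2% in regions 1 to 10 kb from a gene, 47.8% at 10 to 50 kb and 56.1% at 50 to 100 kb. Within the gene-distant regions it fell by 59.1% at 100 to 200 kb, 61.4% at 200 to 500 kb, 61.3% at 500 to 1000 kb and 58.3% beyond. With siBRG1_siBRM the 7 bins fell by 35.3%, 44.0%, 53.1%, 54.6%, 58.8%, 58.9% and 53.7%. The edge at 100 kb was not a step: the 1454 regions at 100 to 110 kb had a held share of 46.3% ± 3.22 in DMSO and 19.2% ± 3.59 in BRM014, and the 1727 at 90 to 100 kb had 45.2% ± 2.93 and 17.6% ± 3.33.

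**Figure D2:**
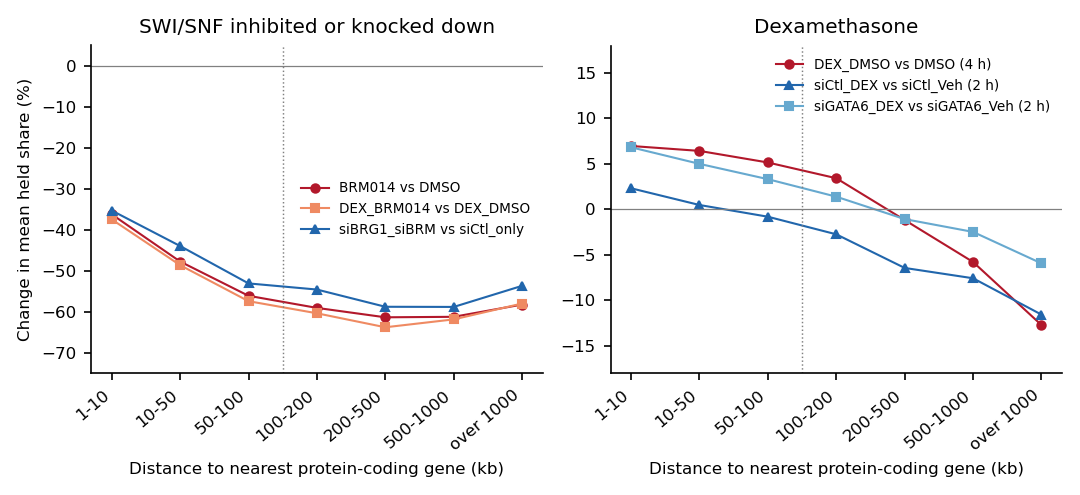
Change in mean held share (percent of the control mean) by distance to the nearest protein-coding gene (kb), for SWI/SNF inhibition or knockdown (left) and DEX (right), with a dotted line at 100 kb. Losses after SWI/SNF block deepen up to about 100 kb and then stay between −53.7% and −63.8%; DEX changes go from above 0 near genes (2.31% to 6.96%) to below 0 beyond 1000 kb (−5.95% to −12.7%).

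A region was called lost when every control library and no treated library held a peak. With BRM014 3093 gene-distant regions were lost (11.7%), against a background of 8.39% of all regions in that comparison. DEX_BRM014 against DEX_DMSO lost 3193 (12.04%, background 9.21%), and siBRG1_siBRM lost 1656 (9.44%, background 6.61%). Of the regions that every control library held, those counts were 39.1%, 41.6% and 25.9%, against 24.5%, 26.2% and 14.3% of all regions. Without siBRG1_siBRM replicate 1 the knockdown count rose to 3053. With the same number of best peaks in every list the 3 counts were 721, 794 and 579. The share of all regions lost was not counted under either change, so whether the excess over the background stays was not tested. Gains were rare: 4 gene-distant regions with BRM014 (background 0.0321%), 8 with DEX_BRM014 (0.0632%) and 12 with siBRG1_siBRM (0.0272%).

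Weak regions were lost most, and gene-distant ones more than near ones of like strength. When regions held by every DMSO library were split into 4 strength classes by their rank in the siCtl_Veh libraries, BRM014 lost 58.2%, 45.6%, 29.3% and 9.75% of the gene-distant ones from weakest to strongest. Near intergenic regions lost 41.7%, 30.8%, 20.5% and 9.34%. With siBRG1_siBRM the gene-distant shares were 41.4%, 35.5%, 18.9% and 2.39% and the near shares 27.4%, 20.6%, 9.11% and 1.55%. In the strongest class the near and distant shares were close. Shares inside and outside lncRNA genes were close: BRM014 lost 39.1% of the regions held by every control both inside and outside lncRNA genes, and siBRG1_siBRM lost 25.7% and 26.0%.

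**Figure D3:**
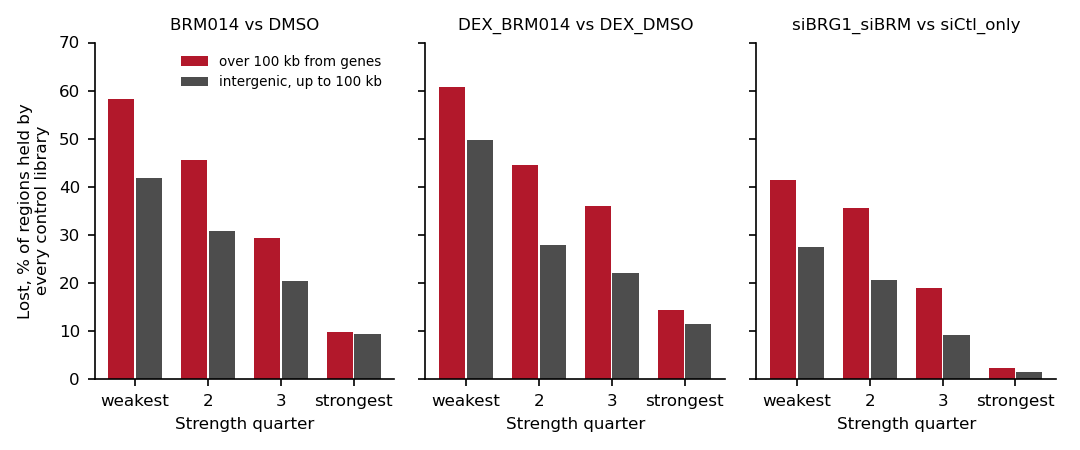
Percentage of regions held by every control library that were lost in each SWI/SNF comparison, by strength class (weakest to strongest, from ranks in control libraries of another experiment), for gene-distant (red) and near intergenic (grey) regions. Bars start at 0; distant regions exceed near ones in all 12 pairs, with the smallest gaps in the strongest class.

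Single regions from the best ranked of those called lost are given as examples, and the call itself requires that no treated library has a peak. At chr1:228902949-228903454, 157 kb from the small GTPase gene RHOU, fold enrichment was 22.3, 30.8, 24.8 and 28.4 in DMSO, and no BRM014 or DEX_BRM014 library had a peak. The siCtl_only libraries had 23.9, 25.1, 22.1 and 21.9 there and siBRG1_siBRM only 12.3 in replicate 1. At chr1:88327735-88328011, 356 kb from the protein kinase gene PKN2, DMSO gave 28.9, 34.0, 35.5 and 33.3, BRM014 and DEX_BRM014 none, and siBRG1_siBRM 7.15 in replicate 1 alone. Strong control peaks thus went below the threshold at both sites. At chr21:35180210-35180490, 131 kb from RUNX1, which codes for a runt-domain transcription factor, siCtl_only gave 20.3, 23.1, 24.3 and 23.7 and siBRG1_siBRM none. DMSO gave 17.9, 19.2, 19.9 and 19.8 at that site and BRM014 4.62 and 4.86 in 2 libraries. DEX_DMSO gave 13.9, 7.99, 10.1 and 13.6, all below DMSO. These regions were picked among those called lost, by the rank of their control peaks. Their values describe the loss and do not test it or show how complete losses were elsewhere.

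The genes with most lost regions are given by count, which follows in part the number of regions near each, and 11.7% of gene-distant regions were lost overall with BRM014 and 9.44% with siBRG1_siBRM. With BRM014, 22 of 85 gene-distant regions nearest ADGRL2, a latrophilin adhesion receptor gene, were lost, and the held share there went from 61.2% ± 6.23 to 15.3% ± 3.33. The transcriptional co-regulator genes CITED2 and TLE4 each had 14 lost (of 77 and 78), as did NCAM2, a neural cell adhesion gene, and the teneurin gene TENM2 (each of 83). CDH11, a mesenchymal cadherin gene, had 13 of 92 lost with BRM014 and led the knockdown with 12 of 62, where its held share went from 73.0% ± 5.16 to 15.3% ± 13.004. The synaptic adhesion genes SLITRK1 (11 of 58) and LRFN5 (10 of 46) and the deubiquitinase gene USP24 (10 of 40) followed. With the same number of best peaks in every list, ADGRL2 kept 4 lost regions with BRM014 and CDH11 kept 2 in each.

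By gene list, the mesenchymal and matrix genes had 62 of 395 gene-distant neighbours lost with BRM014 (15.7%) and 35 of 261 with siBRG1_siBRM (13.4%), against 11.7% and 9.44% near any gene. Beside CDH11 these were led by CDH2, the N-cadherin gene (11 of 58 and 5 of 36), and HAS2, a hyaluronan synthase gene (8 of 91 and 4 of 57). Growth factor and cytokine signalling genes lost 44 (14.6%) and 23 of 184 (12.5%), but 36 (11.9%) with DEX_BRM014, where 12.04% were lost near any gene. Among them was KITLG, which codes for stem cell factor (6 of 17 with BRM014 and 4 of 9 with siBRG1_siBRM). Targets of the glucocorticoid receptor lost 20 of 133 (15.0%) and 8 of 88 (9.09%), and NR3C1, the receptor's own gene, had 3 of 10 and 1 of 7 lost. Developmental transcription factors stood at 103 of 896 (11.5%) and 64 of 582 (11.0%), with 11 of 47 near SOX9 and 10 of 178 near MYC for BRM014. Neural genes, a list for another cell type, lost 25 of 277 (9.03%) and 16 of 168 (9.52%), leukocyte genes 4 of 32 (12.5%) and 3 of 19 (15.8%), and endothelial genes 6 of 35 (17.1%) and 2 of 21 (9.52%). Of these lists for other cell types, endothelial genes with BRM014 and leukocyte genes with siBRG1_siBRM reached the mesenchymal share, on few regions. The other shares stayed below it, and no list was tested as a set.

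The sets lost in one experiment were then read in libraries that had not been used to define them. The 3093 regions lost with BRM014 had a peak at 89.8%, 82.0%, 68.5% and 62.4% in siCtl_only and at 24.3%, 4.95%, 1.94% and 5.85% in siBRG1_siBRM. The share fell by 66.4 percentage points, from 75.7% ± 12.5 to 9.26% ± 10.2, and no libraries overlapped (exact permutation p = 0.0286, adjusted p = 0.0327 over 8 tests). In reverse, the 1656 regions lost with siBRG1_siBRM had a peak at 89.6%, 92.7%, 89.3% and 91.7% in DMSO and at 10.4%, 14.2%, 16.002% and 4.35% in BRM014, a fall by 79.6 percentage points (exact permutation p = 0.0286, adjusted p = 0.0327). For scale, the 2585 regions held by every DMSO and BRM014 library were held at 99.004% ± 0.6004 in siCtl_only and still at 76.7% ± 15.8 in siBRG1_siBRM. These 2585 were chosen for keeping their peak with BRM014 and were not matched in strength to the 3093. By calls, 951 regions were lost in both, 30.7% of the BRM014 set and 57.4% of the knockdown set. The same overlap was not counted over all regions.

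Lost in all 3 SWI/SNF comparisons were 615 gene-distant regions near 429 genes. The like share of all regions was not counted, so this number is not read as a trait of gene-distant regions. The genes with most were AUTS2, a developmental regulator gene, and UBE2E3, a ubiquitin-conjugating enzyme gene, with 6 each, and FBXO33 and USP24 with 5 each. In the GATA6 experiment, which did not enter the choice, these regions were held at 99.7% ± 0.338 in siCtl_Veh, 99.8% ± 0.248 in siCtl_DEX and 97.8% ± 1.18 in siGATA6_Veh. They were thus open in nearly every library with untouched SWI/SNF.

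DEX opened a small set of gene-distant regions, while no change in their overall held share was detectable. At 2 h the held share was 51.9%, 51.2% and 51.7% in siCtl_Veh and 48.1%, 46.0% and 52.0% in siCtl_DEX. The groups overlapped (exact permutation p = 0.4; 3 against 3 cannot go below 0.1). At 4 h it was 45.4% ± 3.41 in DMSO and 44.9% ± 2.47 in DEX_DMSO (exact permutation p = 0.857, n = 4). Relative to near intergenic regions the share fell by 0.10 on the log2 scale at 4 h, from −0.04 ± 0.03 to −0.14 ± 0.03, without overlap (exact permutation p = 0.0286, adjusted p = 0.0327). At 2 h it fell by 0.10 in siCtl cells (exact permutation p = 0.1, adjusted p = 0.4 over 4 tests) and by 0.08 in siGATA6 cells (exact permutation p = 0.3, adjusted p = 0.5). With the same number of best peaks, the 4 h held share itself fell by 3.17 percentage points (exact permutation p = 0.0286).

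With distance the DEX change turned from a rise to a fall. At 4 h the held share rose on average by 6.96% at 1 to 10 kb and 5.14% at 50 to 100 kb. It was 3.41% higher at 100 to 200 kb, and changed by −1.18%, −5.79% and −12.7% in the 3 farther bins. At 2 h in siCtl cells the 4 gene-distant bins gave −2.75%, −6.45%, −7.58% and −11.6%, and in siGATA6 cells 1.38%, −1.08%, −2.49% and −5.95%. No bin was tested by itself.

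Gained regions, held by every treated and no control library, numbered 734 at 2 h in siCtl cells (2.39% of the gene-distant regions, background 2.10%), 672 in siGATA6 cells (2.19%, background 2.02%) and 402 at 4 h (1.52%, background 1.33%). These shares were near the background. Lost with DEX were 322 (1.05%, background 0.681%), 247 (0.804%, background 0.509%) and 199 (0.750%, background 0.383%), so that gene-distant regions were 27.3% of the 4 h losses but 14.0% of regions. By control ranks of another experiment, 733 of the 734 at 2 h and 401 of the 402 at 4 h were in the weakest of the 4 classes. That class held 22296 and 20208 of all gene-distant regions, and a region without a peak in any control library falls there almost by definition, so nothing is read from these counts. Beyond 1000 kb, 10 of 1754 regions were gained at 4 h (0.570%), 46 of 2130 at 2 h in siCtl cells (2.16%) and 40 of 2130 in siGATA6 cells (1.88%), so that the low 4 h share was not seen at 2 h.

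A region called gained in all 3 DEX comparisons lay 242 kb from PIK3R1, which codes for a regulatory subunit of PI3 kinase, inside LOC105379013 (chr5:68543255-68543612). It had no peak in siCtl_Veh, siGATA6_Veh or DMSO and a fold enrichment of 24.5, 24.2 and 26.1 in siCtl_DEX and 24.3, 21.0, 22.7 and 22.2 in DEX_DMSO. In siGATA6_DEX it was 14.5, 21.1 and 17.0, and in DEX_BRM014 3.95, 6.26 and 5.18 in 3 of 4 libraries. All values with BRM014 were below all values of DEX without it. At chr12:92030682-92030995, inside LINC01619 and 109 kb from the antiproliferative gene BTG1, siCtl_DEX gave 22.0, 23.8 and 26.9, DEX_DMSO 17.9, 14.6, 20.7 and 11.9, and DEX_BRM014 none. At chr7:130890783-130891026, inside LINC-PINT and 157 kb from KLF14, siCtl_DEX gave 9.02, 9.32 and 10.7 and DEX_DMSO 10.05, 10.8, 12.5 and 9.82, again with none in DEX_BRM014. A region 118 kb from the O-glycosylation enzyme gene GALNT15 (chr3:16056217-16056605) differed, since DEX_BRM014 kept peaks of 5.91, 4.38, 6.32 and 6.35 in all 4 libraries, below the 9.87 to 13.1 of DEX_DMSO. At chr13:80469814-80470337, 129 kb from SPRY2, an inhibitor gene of receptor tyrosine kinase signalling, DEX_DMSO gave 20.1, 16.8, 16.2 and 16.6 and DEX_BRM014 none.

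Some strong regions had a lower fold enrichment with DEX but kept their peak. At chr1:172933878-172934471, 105.03 kb from the cytokine gene TNFSF18, fold enrichment was 36.7, 39.3 and 38.1 in siCtl_Veh and 23.4, 23.3 and 24.3 in siCtl_DEX. DMSO gave 27.3, 34.8, 29.9 and 28.1 there and DEX_DMSO 21.7, 20.9, 23.01 and 22.3, again without overlap. At chr5:173764478-173764753, 124 kb from the mRNA polyadenylation regulator gene CPEB4, the siCtl_Veh values of 34.9, 36.03 and 33.7 stood above the siCtl_DEX values of 20.6, 23.8 and 20.8. Both regions were named for their loss with BRM014, not for DEX. Fold enrichment was not scaled between libraries. The median for near intergenic peaks was 8.30 ± 0.0851 in DMSO and 7.86 ± 0.143 in DEX_DMSO, and 9.17 ± 0.504 in siCtl_Veh and 9.15 ± 0.392 in siCtl_DEX.

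Several loci gained more than one region with DEX. At 2 h in siCtl cells NCAM2 had 8 of 122 gained, MYC 7 of 179, TBL1XR1, a corepressor subunit gene, 7 of 108, and KLF6 6 of 71. In siGATA6 cells NCAM2 had 12, the zinc finger and homeobox factor gene ZHX2 8 of 78 and HAS2 6 of 101. At 4 h TBL1XR1 and the zinc finger gene ZNF608 had 6 each (of 88 and 74). The atypical IκB gene NFKBIZ had 4 of 14, and the held share around it went from 44.6% ± 6.84 to 76.8% ± 6.84. It changed less at loci with more gained regions. TBL1XR1 went from 52.3% ± 2.45 to 61.1% ± 5.67 and ZNF608 from 48.3% ± 3.72 to 52.7% ± 5.73 at 4 h. For siCtl cells at 2 h NCAM2 went from 42.6% ± 4.34 to 41.8% ± 8.32 and MYC from 50.1% ± 2.33 to 51.2% ± 4.82. TBL1XR1 went from 58.6% ± 0.535 to 55.6% ± 4.90 there, and KLF6 from 49.8% ± 2.15 to 54.9% ± 5.63. In the list of glucocorticoid receptor targets 9 of 136 neighbours were gained at 2 h (6.62%, against 2.39% near any gene): 6 near KLF6, 2 near the kinase gene SGK1 and 1 near CEBPB. The list gave 5 of 136 in siGATA6 cells (3.68% against 2.19%) and 4 of 133 at 4 h (3.01% against 1.52%). Mesenchymal and matrix genes had 21 of 470 (4.47%), 18 of 470 (3.83%) and 6 of 395 (1.52%), with HAS2 and CDH11 in front. YAP and TEAD targets had 0 of 83 at 2 h, 1 of 83 in siGATA6 cells and 0 of 84 at 4 h, and leukocyte genes 0 of 39, 0 of 39 and 0 of 32, lists too short for a low count to be told from the share near any gene.

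The 2 h gains were then read in the BRM014 experiment, which had not been used to find them. The 734 regions had a peak at 2.18%, 3.68%, 2.86% and 3.00% in DMSO and at 59.3%, 56.0%, 55.9% and 55.6% in DEX_DMSO, 53.7 percentage points higher (exact permutation p = 0.0286, adjusted p = 0.0327). In BRM014 the values were 0.272%, 1.23%, 1.36% and 0.136% and in DEX_BRM014 7.22%, 4.77%, 3.68% and 4.09%, 4.19 points higher (exact permutation p = 0.0286, adjusted p = 0.0327). All DEX_BRM014 libraries lay above BRM014 and far below DEX_DMSO. The DEX effect was smaller with the inhibitor (interaction −49.6 points, permutation p = 0.00023, adjusted p = 0.00184 over 8 tests). With the same number of best peaks in every list the DEX effect was 7.60 points and the interaction −6.01, and both kept their call. Beside this, the 9530 regions held by every siCtl_Veh and siCtl_DEX library were held at 83.0% ± 1.58 in DEX_DMSO and 38.3% ± 3.90 in DEX_BRM014. The part that this general loss has in the interaction was not tested. In cells with GATA6 siRNA the set opened too, though 3 against 3 cannot pass the threshold: it was held at 6.40%, 6.54% and 11.4% in siGATA6_Veh and 77.2%, 79.8% and 84.5% in siGATA6_DEX.

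**Figure D4:**
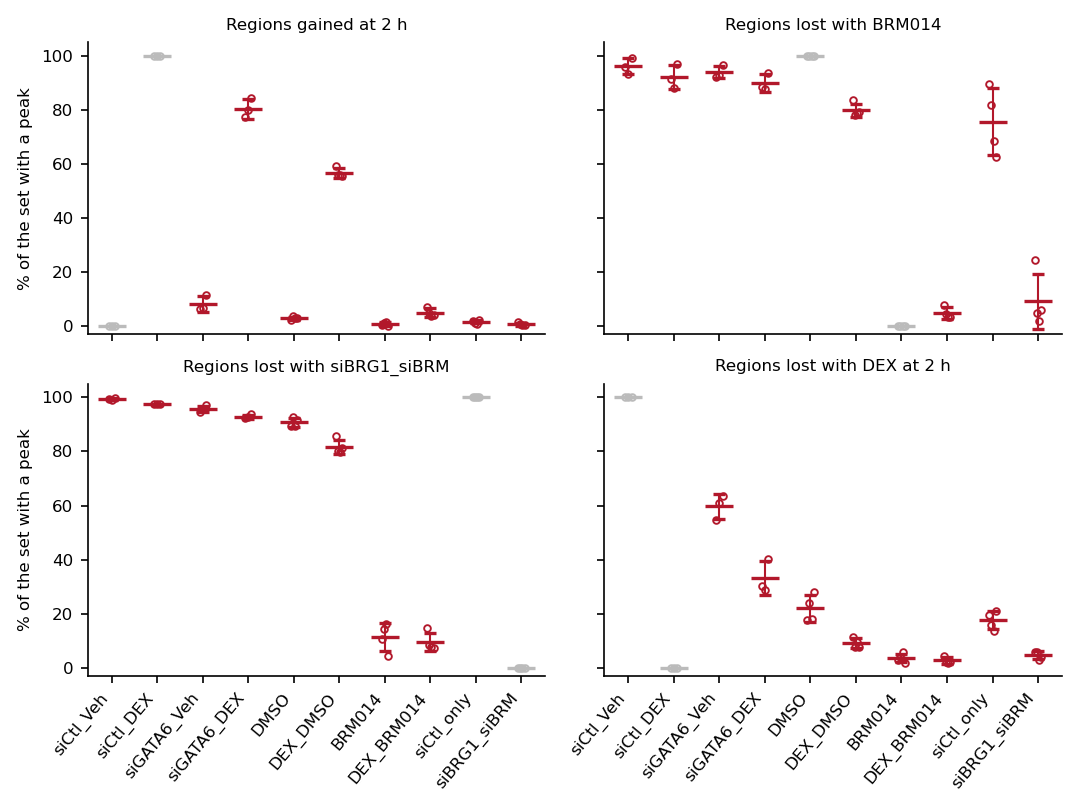
Percentage of 4 sets of gene-distant regions with a peak in each library of all 10 groups: gained at 2 h, lost with BRM014, lost with siBRG1_siBRM and lost with DEX at 2 h. Circles are libraries, bars are means ± SD, and grey points are groups that defined the set; the set gained at 2 h is held at 55.6% to 59.3% in DEX_DMSO and 3.68% to 7.22% in DEX_BRM014.

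In all 3 DEX comparisons 167 regions near 139 genes were gained, with 4 each near HDGFL1 and NFKBIZ and 3 each near BTG1, the microtubule-severing gene FIGN, the cytokine gene IL7, NCAM2, TBL1XR1 and USP24. They were held at 8.38% ± 2.97 in DEX_BRM014 and 0% in BRM014. The 2 h and 4 h sets shared 219 regions, 29.8% of the former and 54.5% of the latter. Neither the 167 nor the 219 was set against a like count over all regions, so neither is read as a trait of gene-distant regions. For losses with DEX 3 regions were shared, 0.932% of the 322 at 2 h and 1.51% of the 199 at 4 h. A loss at 4 h needs a peak in every DMSO library, where the 322 were held at 21.9% ± 4.95 and the 734 gains at 2.93% ± 0.614. Most of the 322 thus could not be called lost at 4 h, so the overlaps of gains and of losses cannot be compared. The 322 were nevertheless less often held in DEX_DMSO (11.5%, 7.76%, 9.63% and 7.45%) than in DMSO (17.7%, 23.9%, 18.01% and 28.0%), a fall of 12.8 points (exact permutation p = 0.0286, adjusted p = 0.0327). That fall was −0.236 points with the same number of best peaks (exact permutation p = 0.429).

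The largest clusters of gene-distant regions parted into a group that lost peaks with SWI/SNF block and a group that did not; they were singled out after their values were seen. MYC, with 178 regions, went from 39.0% ± 2.27 in DMSO to 21.9% ± 5.33 in BRM014, and from 60.8% ± 3.13 in siCtl_only to 29.7% ± 8.93 in siBRG1_siBRM. MAT2B on chromosome 5, with 104, went from 50.0% ± 5.72 to 16.1% ± 6.15. The 135 regions nearest LOC102723475 on the chromosome 21 short arm kept 65.0% ± 3.98 and 64.4% ± 2.42, and in the knockdown experiment 75.4% ± 5.95 and 80.8% ± 6.70. Those nearest OR11H1 on chromosome 22 (203 regions, 24.3% ± 3.07 and 22.0% ± 1.90), LOC101927345 on chromosome 21 (112, 19.2% ± 2.78 and 20.8% ± 4.15) and CWH43 beside the chromosome 4 centromere (99, 28.0% ± 5.11 and 30.3% ± 7.95) did likewise. Short arms and centromere flanks hold near-identical copies, so the placement of their reads is uncertain.

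**Figure D5:**
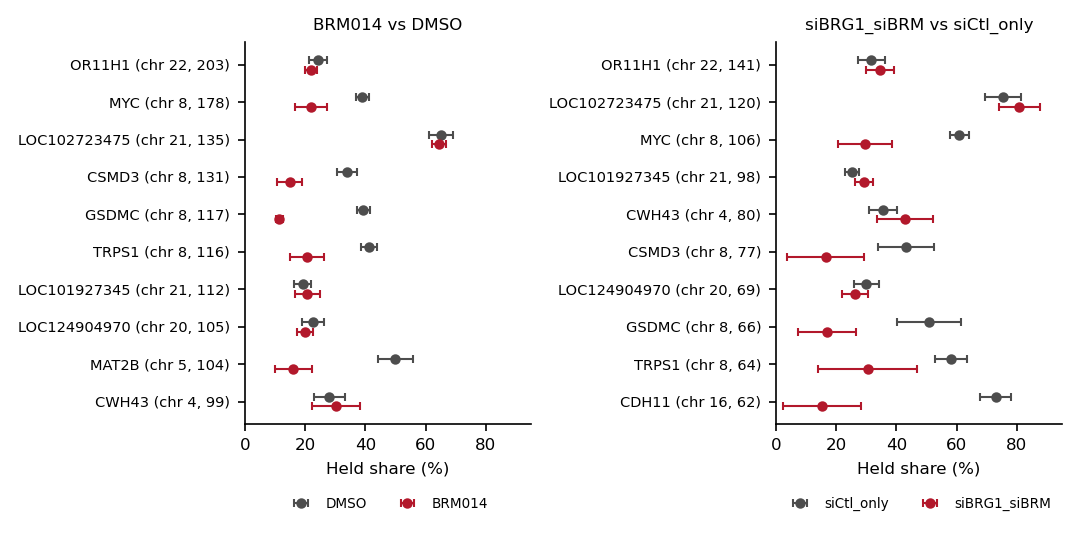
Held share (percent, mean ± SD, n = 4) of the 10 genes with most gene-distant regions, with BRM014 (left) and siBRG1_siBRM (right) in red and the controls in grey; chromosome and number of regions stand in brackets. Treated and control means lie apart for MYC, CSMD3, GSDMC and TRPS1 in both panels, and close together for OR11H1, LOC102723475, LOC101927345 and CWH43.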

How the data were processed

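The 36 deposited narrowPeak lists were used, 1 per library. Build hg38 and the tools MACS2, HOMER, SAMtools and bcl2fastq are named per the submitters' processing notes; the aligner and all versions and settings were not stated there. Each deposited list gives, per peak, the authors' fold enrichment over background (a ratio), −log10 p-value and −log10 q-value. These rank or filter peaks within a list. Fold enrichment of single regions is also set side by side between libraries, as a description without scaling between lists. The smallest −log10 q was 1.30 to 1.31 in the 36 lists, the threshold below which a site is absent.

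Peaks that overlapped by 1 bp were merged within an experiment, and gene positions came from RefSeq (GRCh38.p14). Held shares were compared over libraries with two-sided exact permutation tests, adjusted by Benjamini-Hochberg within 8 tests (4 against 4) or 4 tests (3 against 3). Interactions used 100000 permutations of residuals. Regions were named by a rule: the 8 best ranked called regions per comparison, the 8 best held by all 36 libraries, the 8 genes with most called regions per comparison, up to 3 genes per list, and the most distant regions; the largest clusters and the regions over lncRNA starts lie outside it. Members, lists and tests were chosen with earlier results of these data known. Software was Python 3.11.15, numpy 2.4.6, pandas 2.3.3 and scipy 1.17.1, tested on simulated data. The presence of peaks correlated by at most 0.738 between any pair of libraries. Alternatives covered the q threshold, list length, overlap, distance, lncRNA genes, single libraries and, chosen after seeing the data, regions up to 1000 kb and stronger regions. One of the regions that the rule selects and 1 marker gene are not reported here.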

Additional observations from a re-analysis of the deposited data

Results flagged for a closer look

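Among 42 groups of 4 libraries checked for a library far from the other 3, 2 had one, and chance alone gives about 1 in 20. The 42 include groups that the calls fix at 100% or 0%, which could not show one. These were DMSO and BRM014 for the set lost with BRM014, and siCtl_only and siBRG1_siBRM for the set lost with siBRG1_siBRM. DEX_DMSO replicate 1 held 59.3% of the gene-distant regions gained at 2 h, against 55.6% to 56.0% in the other libraries. DEX_BRM014 replicate 1 held 4.35% of those lost with DEX at 2 h, against 1.86% to 2.17%. The effect of DEX differed with and without BRM014 in 2 sets. For regions gained at 2 h the difference of the DEX effects was −49.6 percentage points (permutation p = 0.00023, adjusted p = 0.00184). For regions lost with DEX at 2 h it was 11.9 percentage points (permutation p = 0.00089, adjusted p = 0.00356), where BRM014 alone already left 3.57% ± 1.61 of them with a peak against 21.9% ± 4.95 in DMSO. That difference turned to −0.629 with the same number of best peaks in every list and lost its call (permutation p = 0.118).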

How the results depend on the processing

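Leaving out 1 library at a time, the ranges were −28.7 to −26.1 points (held share), −0.46 to −0.42 (log2, relative) and 3121 to 3600 lost for BRM014, −29.1 to −26.6, −0.50 to −0.45 and 3276 to 3610 for DEX_BRM014, −37.6 to −29.7, −0.55 to −0.40 and 1664 to 3053 for siBRG1_siBRM (3053 without its replicate 1), −1.79 to 0.680, −0.11 to −0.089 and 436 to 504 gained for DEX at 4 h, and −3.42 to 2.46 for the held share with DEX in siGATA6 cells. The sets read in other experiments gave 52.9 to 54.1 (gained at 2 h), −71.4 to −61.7 (lost with BRM014), −81.2 to −77.3 (lost with siBRG1_siBRM) and −14.2 to −10.8 (lost with DEX). Exact p cannot go below 0.0571 with 3 against 4. With replicate number as a block, the same differences (held share −27.4, −27.8 and −32.6; relative −0.44, −0.48, −0.45 and, for DEX at 4 h, −0.10; sets 53.7, −66.4, −79.6 and −12.8) reached the smallest p that such a pairing of 4 allows, which is above the threshold. Deviations of same-numbered libraries from their group means correlated by −0.0505 to 0.145, and in no comparison were all above 0.1, so the numbers were not taken as pairs. In the GATA6 experiment all were positive (0.0258 to 0.145), and for siCtl_DEX against siCtl_Veh every replicate matched its own number best. Replicate 3 had the highest held share in both siGATA6_Veh and siGATA6_DEX (57.9% each). Whether same-numbered libraries there share a culture was not tested.

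With the same number of best peaks, 721 (BRM014), 794 (DEX_BRM014) and 579 (siBRG1_siBRM) regions were lost and 135 gained at 4 h. There the 4 h held share fell by 3.17 points (exact permutation p = 0.0286), the set lost with DEX at 2 h gave −0.236 (exact permutation p = 0.429) and its interaction turned to −0.629 (permutation p = 0.118), so both lost their call. Beyond 200 kb the counts were 1960, 1976 and 1085 lost and 242 (4 h), 449 (2 h) and 421 (siGATA6) gained. With lncRNA genes counted as genes they were 686, 669, 394, 76, 156 and 138. These settings test fewer regions, and the share of all regions called was counted under the main setting alone. Among stronger regions alone 41, 34 and 47 were gained, and the 4 h held share fell by 6.78 points (exact permutation p = 0.0286). The held share with DEX turned positive at 4 h with a 50 kb limit (0.352) and in siGATA6 cells with −log10 q of at least 5 (2.15), a 50 kb limit (0.229) or regions in at least 2 libraries (0.140). The cause of these shifts was not tested. Of 198 other values for the tested results, 171 kept their call. Peak lists carry no read totals, so weak sites near the threshold limit every count.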

Other observations

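Gains after SWI/SNF block were rare. Of the gene-distant regions 0.0151% were gained with BRM014, 0.0302% with DEX_BRM014 and 0.0684% with siBRG1_siBRM, where they numbered 12. The 12 were 34.3% of the 35 regions gained in that comparison, whereas gene-distant regions were 13.6% of all. Among the best ranked of the 12 were regions nearest ZNF37A (chr10:40128254-40128342), OR11H1 (chr22:12176423-12176505), LOC102723475 (chr21:8231735-8231991), SHCBP1 (chr16:46391031-46391132) and EMB (chr5:48241313-48241391). These named regions lie in short-arm or centromere-flanking sequence with near-identical copies. That does not cover all 12. Others were nearest CCDC54 (within chr3:106628563-107272036), LOC105377015 (within chr3:30319731-30500480), COX7C (within chr5:85629812-86917258) and MED14 (within chrX:40844486-40909380).

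The gene desert beside MAT2B had most regions lost with DEX at 4 h (4 of 104), so it was singled out by that outcome. Its 104 regions were held at 50.0% ± 5.72 in DMSO and 34.6% ± 3.04 in DEX_DMSO (n = 4). At 2 h its 128 regions were held at 51.0% ± 11.8 in siCtl_Veh and 39.6% ± 9.05 in siCtl_DEX (n = 3). In siGATA6 cells the shares were closer, 46.4% ± 11.5 with vehicle and 42.7% ± 11.2 with DEX, and 0 regions were called lost there. At chr6:140367021-140367324, 993 kb from CITED2, fold enrichment was 8.87, 12.3, 10.99 and 14.6 in DMSO with no peak in DEX_DMSO, BRM014, DEX_BRM014 or siBRG1_siBRM. The same region kept peaks at 2 h, with 25.6, 26.2 and 27.0 in siCtl_Veh and 16.1, 17.1 and 13.9 in siCtl_DEX. No test was run on these values.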
